A study of Mus musculus with 4 samples.

Results

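Interleukin 6 family signalling was read from 10 genes in PyMT-A, a mouse mammary tumour cell line of FVB/NJ origin, chosen by gene symbol from the 33677 symbols of the count table. The genes were the cytokines Il6, Lif, Il11 and Clcf1, the receptor chains Il6st, Il6ra, Lifr and Osmr, the transcription factor Stat3 and its feedback inhibitor Socs3. Vector cells carried the PMSCV-puro retrovirus and Jagged1 cells the PMSCV-Jagged1 retrovirus, which delivers a ligand of Notch receptors. Both lines were cultured in DMEM with serum, and poly(A) RNA was sequenced in 2 libraries per line, called here vector 1, vector 2, Jagged1 1 and Jagged1 2. The labels do not say whether a line is a single clone or whether its libraries came from separate cultures. The p-values therefore measure the spread between these libraries, and that spread may be technical. The comparison asks how the transcripts of this cytokine system differ between tumour cells with and without the Jagged1 virus.

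Cytokines of this family share the signal-transducing receptor chain gp130, the product of Il6st. Each binds its own partner chain (Il6ra for interleukin 6, Lifr for LIF, Osmr for oncostatin M), JAK kinases bound to the receptors then phosphorylate STAT3, and STAT3 switches on Socs3, whose protein blocks gp130 and the kinases in turn. In the mammary gland LIF is known as the cytokine that activates STAT3 at weaning, when the milk-producing epithelium is removed. Interleukin 6 is also made by fibroblasts and macrophages of tumours.

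Stretches before the transcription starts of 4 members are printed because they hold letters of the factors that act up- and downstream of these cytokines. Sequences are from RefSeq on GRCm38.p6, where 9 of the 10 members had an entry, and end at the listed start or at the first exon base of the gene in GENCODE M21. Those of Il11 and Socs3 lie in introns of longer GENCODE transcripts of the same genes. Capitals mark TGANTCA, the AP-1 motif, in the first 3 and TTCNNNGAA, the STAT motif, in Socs3. Both motifs read the same on the other strand.
Lif, chr11:4257318-4257556, plus strand: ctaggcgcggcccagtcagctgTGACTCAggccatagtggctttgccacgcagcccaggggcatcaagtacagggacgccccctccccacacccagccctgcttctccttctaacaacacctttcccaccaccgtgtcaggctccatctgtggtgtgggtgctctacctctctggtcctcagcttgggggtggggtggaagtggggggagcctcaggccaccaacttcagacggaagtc
Il6, chr5:30012864-30013113, plus strand: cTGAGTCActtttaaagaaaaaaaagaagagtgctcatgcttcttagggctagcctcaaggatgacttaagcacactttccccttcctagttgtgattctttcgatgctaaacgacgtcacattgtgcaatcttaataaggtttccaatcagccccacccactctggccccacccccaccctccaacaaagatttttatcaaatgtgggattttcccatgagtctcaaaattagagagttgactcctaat
Il11, chr7:4778142-4778391, minus strand: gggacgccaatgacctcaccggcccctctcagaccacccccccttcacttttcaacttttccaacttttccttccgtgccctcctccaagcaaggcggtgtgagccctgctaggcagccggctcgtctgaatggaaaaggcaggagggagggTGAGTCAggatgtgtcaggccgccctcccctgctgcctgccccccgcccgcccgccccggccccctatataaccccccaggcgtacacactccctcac
Socs3, chr11:117969452-117969616, minus strand: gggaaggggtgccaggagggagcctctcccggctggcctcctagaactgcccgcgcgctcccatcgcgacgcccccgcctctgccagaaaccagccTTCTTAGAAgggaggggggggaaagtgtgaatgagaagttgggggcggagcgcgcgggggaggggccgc
The AP-1 letters began 228 bases before the start of Lif, 249 before that of Il6 and 98 before 1 of the listed starts of Il11, and the STAT letters began 154 bases before the start of Socs3. The letters were searched in the full 250 bases before each listed start, also where less is printed. Of the 11 such stretches of the 9 members, 3 held the AP-1 letters and 1 the STAT letters. Of all 32851 stretches in the RefSeq table, 6.75% held the AP-1 letters and 7.02% the STAT letters. A match describes letters only, not a bound site.

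Total counts ran from 12136227 to 20835208 per library, and 3 counts stood for 0.145 to 0.244 counts relative to library size (CPM). Levels below are CPM after TMM scaling, a correction for library composition, and differences are log2 fold changes of Jagged1 minus vector with their standard error (SE). Jag1, the gene the virus carries, had 159 and 112 counts in vector and 5676 and 4493 in Jagged1 cells, a log2 fold change of 4.93 ± 0.20 (adjusted p = 0.0111, edgeR). The first principal component, with 51.6% of the variance, separated vector 1 and Jagged1 1 (-31.1 and -25.9) from vector 2 and Jagged1 2 (17.1 and 39.98). The epithelial markers Epcam, Cdh1, Krt8 and Krt18 stood between 557 and 1190 CPM in every library, and 10 of 11 epithelial markers were above 1 CPM throughout, Krt5 being the exception. Markers of other cells were low but not level. The summed fibroblast markers stood at 4.43, 7.0 and 10.5 CPM in vector 1, vector 2 and Jagged1 1 and at 49.0 CPM in Jagged1 2, and 4 of the 7 were highest there (Col1a1 at 27.2 CPM, Pdgfrb at 7.44, Col3a1 at 5.99 and Dcn at 1.66). Pdgfra was highest in Jagged1 1 (8.03 CPM against 6.72 in Jagged1 2), Thy1 had 1 read over the 4 libraries, and Lum had 0. The summed leukocyte markers stood at 1.72 and 1.79 CPM in the libraries numbered 1 and at 10.5 and 11.1 CPM in those numbered 2. Lyz2 was read 71 and 89 times in the latter and never in the former, while Cd3e was at 0 in all. The summed endothelial markers stood at 0.793, 2.93, 0.581 and 6.35 CPM in the order vector 1, vector 2, Jagged1 1, Jagged1 2, of which Cdh5 made up most in the libraries numbered 2, at 0.397, 2.61, 0.484 and 6.07 CPM. The other 4 endothelial markers had at most 4 reads in any library, and Pecam1 and Vwf had 0 in both Jagged1 libraries. In such bulk samples fewer cells of a type and less RNA per cell cannot be told apart.

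Of the 10 members, 8 had enough counts to be tested among 13299 genes, and 0 passed the adjusted threshold of 0.05 with edgeR's quasi-likelihood test, where 0.00752% of all genes did. At an unadjusted p under 0.05 stood 2 members, Lif and Clcf1, against 3.96% of all genes. DESeq2 also called 0 of the 8 (0.353% of all genes), with 3 at an unadjusted p under 0.05 (3.71% of all genes). With limma-voom the counts were 0 (0.00752% of all genes) and 2 (3.99% of all genes). Of the 8, 4 had higher and 4 lower values in Jagged1 cells, with a median log2 fold change of 0.07 against -0.003 over all tested genes. The cytokine genes Lif and Clcf1 were lower in both Jagged1 libraries, and Il6, Il11, Osmr and Stat3 were highest in Jagged1 2. Of these last genes only Stat3 had lines that did not overlap. The lines also overlapped for Il6st, Il6ra and Socs3, which were highest in Jagged1 2 as well. Lifr was low in all libraries.

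Lif encodes leukaemia inhibitory factor, which signals through gp130 and LIFR (chromosome 11, 4257557 to 4272514, plus strand). Its counts were 4877 and 3711 in vector cells and 4270 and 2990 in Jagged1 cells. These counts correspond to 322 and 302 CPM against 207 and 216 CPM. Each Jagged1 library was lower than each vector library, and the gap between the lines was larger than either gap within a line. The mean went from 312 ± 14.3 to 211 ± 6.56 CPM (SD, n = 2 per line), a fitted ratio of 0.677. The log2 fold change was -0.56 ± 0.15 (adjusted p = 0.976, edgeR), so the difference did not pass over all genes. Leaving out any 1 library kept the value between -0.62 and -0.50.

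Clcf1 encodes cardiotrophin-like cytokine factor 1, a ligand of the CNTF receptor complex with gp130 and LIFR (chromosome 19, 4214238 to 4223490, plus strand). Its level was 72.9 and 66.9 CPM in the vector libraries and 40.6 and 45.2 CPM in the Jagged1 libraries, from 1103, 822, 838 and 626 reads. Here too the groups did not overlap. The mean of 69.9 ± 4.23 CPM in vector stood against 42.9 ± 3.29 CPM in Jagged1 cells (SD, n = 2 per line), and the log2 fold change was -0.71 ± 0.16 (adjusted p = 0.914, edgeR). With 1 library left out it lay between -0.78 and -0.62. In GENCODE M21 a gene model on the same strand, AC109138.7, covers 8.17% of the exon bases of Clcf1, and reads there could be assigned to either.

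Among the 8 tested members, 3 had both Jagged1 libraries below both vector libraries (Lif, Clcf1 and Lifr) and 1 had both above (Stat3), where 15.1% and 13.9% of all tested genes did. These counts are too small to be read against those shares.

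Il6 encodes interleukin 6, the namesake of the family (chromosome 5, 30013114 to 30019981, plus strand), and was barely read in 3 of the 4 libraries. There were 1 and 2 reads in the vector libraries, 0 in Jagged1 1 and 17 in Jagged1 2. The count of 17 stood for 1.23 CPM (exact 95% Poisson interval 0.715 to 1.97, counting error only), while vector 1, vector 2 and Jagged1 1 had upper limits of 0.368, 0.588 and 0.179 CPM. All Il6 reads of the Jagged1 line therefore came from 1 library. Over the summed reads the ratio of Jagged1 to vector was 4.50 with an exact counting interval of 1.30 to 24.0, which leaves out the spread between the Jagged1 libraries. Il6 was below the count filter. Without that filter its log2 fold change over the 4 libraries was 2.28 ± 1.11 (adjusted p = 0.961, edgeR).

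Il11, the gene of interleukin 11 (chromosome 7, 4772373 to 4782859, minus strand), was low in the same 3 libraries. It was read 5, 8, 10 and 36 times in vector 1, vector 2, Jagged1 1 and Jagged1 2, which gave 0.331, 0.651, 0.484 and 2.6 CPM. Jagged1 1 lay between the vector libraries, and Jagged1 2 was 5.37 times as high as Jagged1 1. Of all Il11 reads, 61.0% were in Jagged1 2. Without Jagged1 2 the log2 fold change of Il11 was 0.01, and without Jagged1 1 it was 2.41 with an adjusted p of 0.179 (edgeR), short of the threshold. In fits with 1 library left out, the lone library of a line is assumed to vary like those of the other line.

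Il6st, which encodes the shared chain gp130 (chromosome 13, 112464070 to 112510086, plus strand), stood at 238, 213, 209 and 239 CPM in vector 1, vector 2, Jagged1 1 and Jagged1 2. The lines overlapped, at 226 ± 17.6 and 224 ± 21.1 CPM (SD, n = 2 per line), and the log2 fold change was -0.01 ± 0.16 (adjusted p = 1, edgeR). Its sign depended on the library left out, between -0.11 and 0.09.

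Of the partner chains, Il6ra, the interleukin 6 binding chain (chromosome 3, 89864059 to 89913196, minus strand), stood at 22.3 and 16.6 CPM in the vector libraries and at 19.4 and 23.8 CPM in the Jagged1 libraries. The lines overlapped, with a log2 fold change of 0.15 ± 0.23 (adjusted p = 1, edgeR) that ran from -0.06 to 0.40 with 1 library left out. Lifr, the LIF receptor (chromosome 15, 7090614 to 7197489, plus strand), was read only 19, 12, 20 and 8 times, which gave 1.26, 0.977, 0.968 and 0.578 CPM in the same order of libraries. The exact Poisson intervals of all 4 overlapped, the widest bounds being 0.249 and 1.96 CPM, and the log2 fold change of -0.51 ± 0.53 did not pass (adjusted p = 1, edgeR). With 1 library left out it lay between -0.95 and -0.21.

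Osmr encodes the oncostatin M receptor chain (chromosome 15, 6813577 to 6874969, minus strand) and was high in a single library. Its level was 32.4 and 41.4 CPM in the vector libraries, 31.2 CPM in Jagged1 1 and 83.6 CPM in Jagged1 2. Jagged1 1 was the lowest of the 4 and Jagged1 2 was 2.68 times as high, so the lines overlapped. The log2 fold change of 0.63 ± 0.46 did not pass (adjusted p = 1, edgeR). Without Jagged1 1 it was 1.18 with an adjusted p of 0.00537, and without Jagged1 2 it was -0.24 with an adjusted p of 1 (edgeR).

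Stat3 (chromosome 11, 100885098 to 100939540, minus strand) stood at 235 and 225 CPM in the vector libraries, 263 CPM in Jagged1 1 and 481 CPM in Jagged1 2. Each Jagged1 library was higher than each vector library, but Jagged1 1 was at 1.14 times and Jagged1 2 at 2.09 times the vector mean. The means were 230.0 ± 6.95 and 372 ± 154 CPM (SD, n = 2 per line), and the log2 fold change was 0.69 ± 0.30 (adjusted p = 1, edgeR). It was 1.06 without Jagged1 1 (adjusted p = 0.0199) and 0.20 without Jagged1 2 (adjusted p = 1, edgeR). Without Jagged1 1, Stat3 and Osmr were the 2 of 10 members called, against 1.38% of all genes in that fit. Exons of Stat3 overlap those of Stat5a on the other strand over 0.756% of their bases.

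Socs3, the feedback inhibitor whose stretch with the STAT letters is printed above (chromosome 11, 117966079 to 117970047, minus strand), stood at 31.2 and 22.8 CPM in the vector libraries and at 24.6 and 37.2 CPM in the Jagged1 libraries. Jagged1 2 was the highest library and Jagged1 1 lay between the vector libraries. The log2 fold change was 0.19 ± 0.28 (adjusted p = 1, edgeR), and its sign changed with the library left out, from -0.14 without Jagged1 2 to 0.46 without Jagged1 1.

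**Figure D1:**
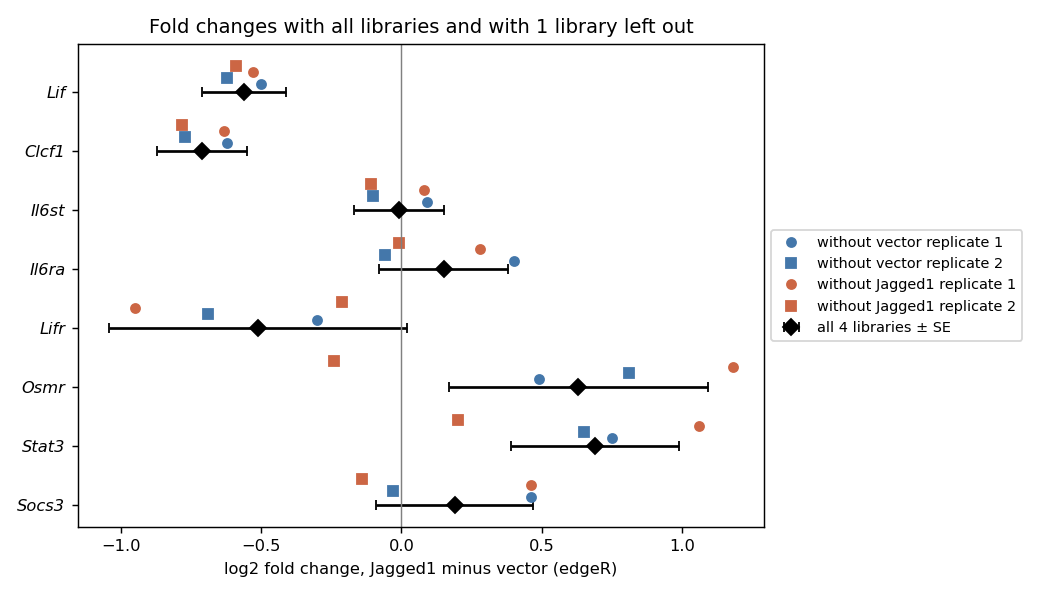
Log2 fold change of Jagged1 minus vector (edgeR) for the 8 tested members, with black diamonds and SE bars for all 4 libraries and coloured points for fits with 1 library left out. Lif and Clcf1 stay between -0.78 and -0.50, whereas Osmr runs from -0.24 to 1.18 and Stat3 from 0.20 to 1.06 depending on which Jagged1 library is left out.

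The members high in Jagged1 2 were high to different degrees. On the log2 scale Jagged1 2 minus Jagged1 1 was 3.39 for Il6, 2.15 for Il11, 1.42 for Osmr, 0.87 for Stat3 and 0.59 for Socs3. It was 0.30 for Il6ra, 0.19 for Il6st, 0.16 for Clcf1, 0.06 for Lif and -0.63 for Lifr. With 0 reads of Il6 in Jagged1 1, the size of its value depends on the prior count of 2 added before the logarithm. Osmr and Stat3 stood at the 96.5 and 91.8 percentile of that difference among all tested genes. The same difference between the vector libraries, vector 2 minus vector 1, was 0.35 for Osmr and -0.06 for Stat3. Jagged1 2 was the highest of the 4 libraries for 5 of the 8 tested members, where it was the highest for 29.0% of all tested genes. These were Osmr, Stat3, Socs3, Il6ra and Il6st, the last at 239 CPM against 238 CPM in vector 1. Il6 and Il11 were not tested and are not in that count. The count is too small to be read against that share. The summed fibroblast markers and 4 of the 7 single ones were highest in the same library, and their part in these values was not tested.

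Compared per kilobase of exon, Lif had the highest mean level of the 10 members and Lifr the lowest. Mean levels over the 4 libraries, in CPM per kilobase, were 60.2 for Lif, 31.6 for Stat3, 20.3 for Il6st, 14.8 for Clcf1 and 10.0 for Socs3. They were 3.89 for Osmr, 2.38 for Il6ra, 0.488 for Il11, 0.150 for Il6 and 0.0877 for Lifr. Both ends of the order by mean differed in Jagged1 2. There Stat3 (50.5) stood above Lif (49.6), and Il6 (0.506) above Lifr (0.0536). In vector 1, vector 2 and Jagged1 1, Il6 was below Lifr (0.0272, 0.0671 and 0 against 0.117, 0.0907 and 0.0898). Neighbours in the order by mean had overlapping ranges over the libraries, except Stat3 above Il6st, Socs3 above Osmr, and Il6ra above Il11. All 10 members kept their place when the longest transcript replaced the union of exons as the length.

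**Figure D2:**
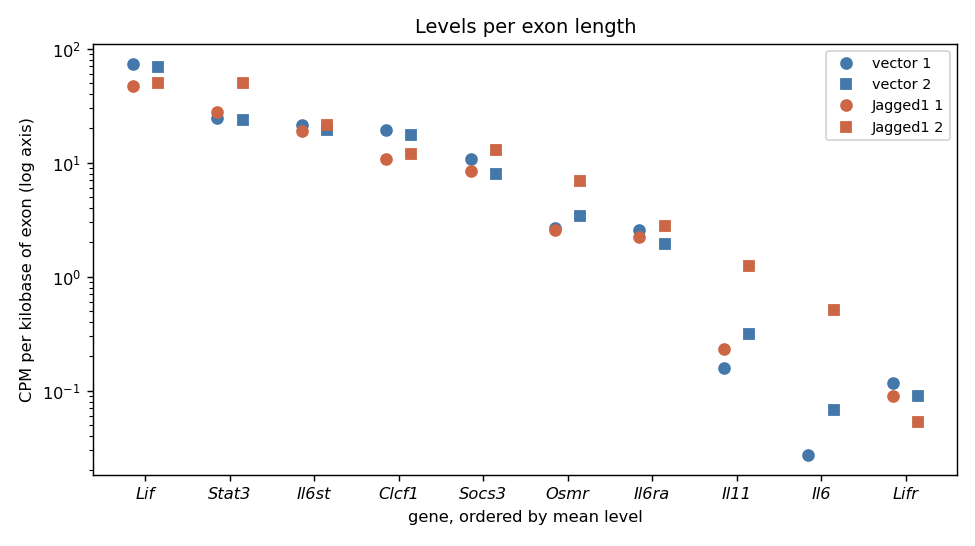
CPM per kilobase of exon for each member on a log axis, ordered by mean level, with vector in blue, Jagged1 in orange, circles for the libraries numbered 1 and squares for those numbered 2; the level of 0 for Il6 in Jagged1 1 is not drawn. The means run from 60.2 for Lif to 0.0877 for Lifr.

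Most other cytokines of the family had few reads. Of 8 listed, 7 fell below the count filter, with Osm and Il31 at 0 in all libraries; the exact 95% Poisson upper limits of 0 reads of Osm were 0.179 to 0.300 CPM. Ctf1, the gene of cardiotrophin 1, was the exception at 12.5, 17.5, 16.6 and 17.9 CPM in vector 1, vector 2, Jagged1 1 and Jagged1 2 (log2 fold change 0.21 ± 0.24, adjusted p = 1, edgeR). The level of Cntf (7, 2, 7 and 4 reads in that order) is uncertain. In GENCODE M21 Zfp91 on the same strand covers 78.9% of its exon bases.

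Of 5 further receptor chains, 2 were tested. Il11ra1, the interleukin 11 receptor, stood between 17.3 and 20.7 CPM in the 4 libraries (log2 fold change 0.05 ± 0.19); it has a near-identical copy, Il11ra2, listed at 0 throughout, so the division of reads is uncertain. Its sign was negative without vector 2 or without Jagged1 1 (-0.01 and -0.09). Cntfr, the binding chain for Clcf1, was lower in both Jagged1 libraries but low in all, at 0.727 and 1.87 CPM in vector and 0.194 and 0.505 CPM in Jagged1 cells (log2 fold change -1.92 ± 0.78, adjusted p = 1, edgeR). Its value was -1.10 without vector 2 and -2.68 without Jagged1 2.

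The kinases, receptor-shedding proteases and other STAT genes were all tested, and 0 of 8 passed with edgeR, DESeq2 or limma-voom. Of all genes, 0.00752%, 0.353% and 0.00752% passed in these fits. None of the 8 had an unadjusted p under 0.05 there, against 3.96%, 3.71% and 3.99% of all genes. A list of this size is too small to be read against those shares. Of the 8, 5 were higher and 3 lower in Jagged1 cells, with a median log2 fold change of 0.16. Stat5a, which acts downstream of prolactin, was higher in both Jagged1 libraries, at 43.2 and 55.1 CPM against 57.3 and 78.4 CPM (0.47 ± 0.23). Stat5b stood at 0.25 ± 0.21 and the protease gene Adam10 at 0.36 ± 0.21, both with overlapping lines, and these 3 genes had an adjusted p of 1 (edgeR).

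Other inhibitors of the pathway were split evenly. Of 14 SOCS, PIAS and phosphatase genes, 7 were higher and 7 lower, and the median was 0.01. With edgeR, DESeq2 or limma-voom 0 passed, against 0.00752%, 0.353% and 0.00752% of all genes. An unadjusted p under 0.05 was reached by 0 in any of the 3, against 3.96%, 3.71% and 3.99% of all genes. This list too is too small to be read against those shares. The named genes were Socs1 at -0.30 ± 0.34, Socs4 at 0.34 ± 0.24, Socs6 at -0.17 ± 0.15 and Pias1 at 0.16 ± 0.16, each with an adjusted p of 1 (edgeR). Values of all 14 lay between -0.30 and 0.39.

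Genes that STAT3 is known to switch on fell on both sides of 0. Of 27 listed, 24 were tested, 11 higher and 13 lower in Jagged1 cells with a median log2 fold change of -0.02, and 0 passed with edgeR (0.00752% of all genes), where 2 had an unadjusted p under 0.05 (3.96% of all genes). DESeq2 called 1, Ccnd1 (0.353% of all genes), and limma-voom 0 (0.00752% of all genes). Without Jagged1 1 the median was 0.27, with 18 of 26 tested targets higher and 3 called (Cebpd, Pim1 and Lrg1), against 1.38% of all genes. Without Jagged1 2 it was -0.19, with 20 of 25 lower and 0 called by edgeR, against 0.352% of all genes in that fit. At an unadjusted p under 0.05 stood 6 of these 25, against 6.58% of all genes. Without Jagged1 1, where most targets were higher, more of them stood under that p, as did more of all genes. Each of these fits rests on a lone Jagged1 library, and the list is too small to be read against those shares. No direction of the targets is therefore drawn from these counts. Ccnd1, the cyclin D1 gene, was lower in both Jagged1 libraries, at 941 and 842 CPM against 565 and 492 CPM. Its log2 fold change was -0.75 ± 0.17 (adjusted p = 0.914, edgeR, and 0.0388 with DESeq2). Antisense exons of another gene cover 23.4% of its exon bases. Pim3, a kinase gene, stood at 47.6 and 49.9 CPM in vector and 30.7 and 34.5 CPM in Jagged1 cells (-0.58 ± 0.16, adjusted p = 0.976, edgeR), and Junb at -0.29 ± 0.14 (adjusted p = 1, edgeR). Both were lower in both Jagged1 libraries.

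Cebpd, which encodes a transcription factor of the acute-phase response and of mammary involution, was highest in Jagged1 2, as Osmr was. It stood at 129 and 97.5 CPM in vector, 117 CPM in Jagged1 1 and 282 CPM in Jagged1 2 (0.82 ± 0.43, adjusted p = 1, edgeR); exons of Spidr on the other strand cover 15% of its exon bases. It passed without Jagged1 1 (1.32, adjusted p = 0.00227) and without the filter on low counts (0.80, adjusted p = 0.0440, edgeR), where 0.686% of all genes passed, and it stood at 0.05 without Jagged1 2. Jagged1 2 was the highest library for 13 of the 24 tested targets, where it was the highest for 29.0% of all tested genes. Acute-phase genes were singled out after their values were seen. Of those, Lcn2 and Saa3 were among the 13, while Lrg1 and Hp fell below the count filter with all libraries. Lcn2, the gene of the iron-carrier protein lipocalin 2, stood at 2210, 3310, 1370 and 5760 CPM in vector 1, vector 2, Jagged1 1 and Jagged1 2. Lrg1 was read 0, 3, 0 and 67 times, Hp (haptoglobin) 0, 4, 1 and 35 times, and Saa3 28, 21, 2 and 72 times in that order. For Lcn2 and Saa3 the Jagged1 libraries were thus the lowest and the highest of the 4.

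**Figure D3:**
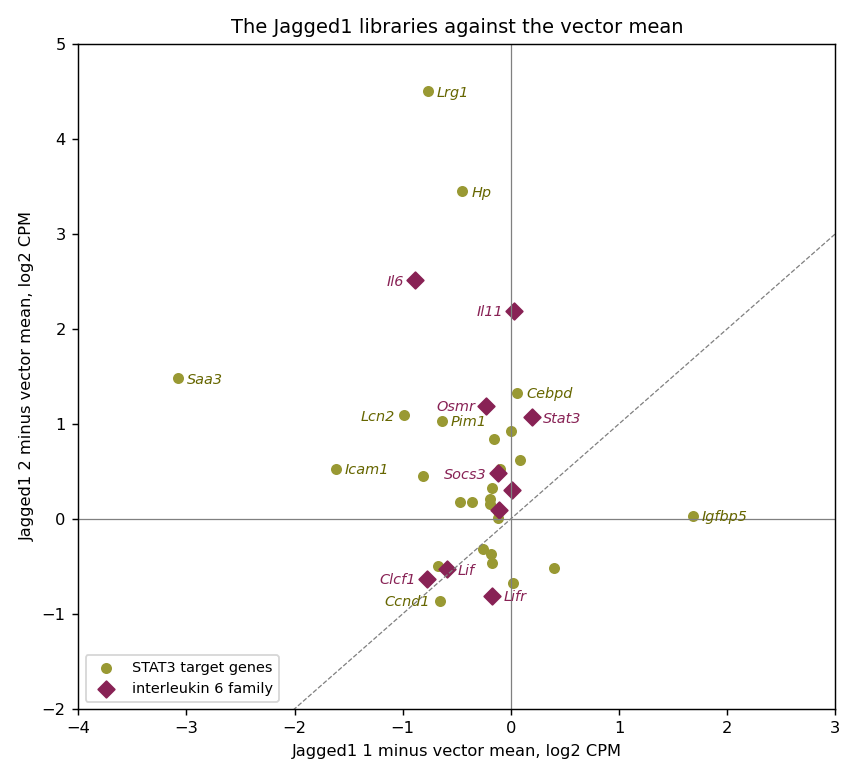
Log2 CPM (prior count 2) of Jagged1 1 (x axis) and Jagged1 2 (y axis), each minus the mean of the vector libraries, for the 10 members (diamonds) and 27 STAT3 target genes (circles); on the dashed line both Jagged1 libraries differ equally from vector. Both axes share the vector mean. Lif, Clcf1 and Ccnd1 lie below 0 on both axes. Il6, Il11, Osmr, Stat3, Cebpd, Lrg1, Hp, Pim1, Lcn2 and Saa3 lie above 1 on the y axis and at 0.20 or below on the x axis. Pim1, Lcn2 and Saa3 are below 0 on the x axis, Saa3 the lowest of all at -3.08.

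The genes closest in profile to Lif and to Il6 were taken from all tested genes by the root mean square difference in log2 CPM, centred on the mean of the 4 libraries. For Lif these were Tap1 (0.0265), Dtwd1 (0.0284) and Zbp1 (0.0291), and 110 genes lay within 0.1 of it. Tap1, a transporter of peptides for MHC class I, stood at 180 and 167 CPM in vector and 116 and 125 CPM in Jagged1 cells. Zbp1, a nucleic acid sensor, stood at 239 and 219 CPM against 145 and 157 CPM. For Il6 they were the metalloprotease genes Mmp19 (0.134) and Mmp13 (0.225) and the kininogen gene Kng2 (0.232). Mmp13 was read 49, 61, 29 and 275 times in vector 1, vector 2, Jagged1 1 and Jagged1 2. Its peak in Jagged1 2 follows from the choice by likeness to Il6, whose own profile rests on 1, 2, 0 and 17 reads. With 4 libraries these likenesses are descriptions only.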

How the data were processed

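Poly(A) RNA of 2 vector and 2 Jagged1 libraries was sequenced. The deposited table holds unnormalized counts of reads for each gene symbol in each library. The submitters' processing notes name STAR 2.6.0c, featureCounts 1.6.2 and the mm10 (GRCm38) genome. Which annotation and strand setting were used is not given in the sources used here. Reads in exons shared by genes of opposite strands therefore cannot be assigned with certainty, and reads of the virus and of the cell's own Jag1 are not separated. In 27 names a symbol had become a date, and 2 rows repeat a name; none is a member.

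Libraries were grouped by title and differed within a line by far more than sampling noise (chi-square per degree of freedom 35.6 for vector and 55.9 for Jagged1), so each counted as 1 replicate. Low counts were removed by filterByExpr (minimum count 10, edgeR 4.0.16), and the rest were scaled with TMM and tested with the quasi-likelihood F test (robust, legacy) in R 4.3.3, with Benjamini-Hochberg adjustment over all 13299 tested genes. The SE was derived from the F statistic, as the size of the log2 fold change over the root of F. With 2 against 2 libraries an exact permutation test cannot reach the threshold and none was run. Log2 CPM used a prior count of 2, exon lengths came from GENCODE M21, and intervals are exact (95%) and cover counting error only. DESeq2 1.42.0, limma 3.58.1 (voom), other scaling and filters, a replicate block and leaving out each library were the alternatives. The fits were tested on simulated data.

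The members, gene lists and tests were chosen with earlier results of these data known. Named are all 10 members and, of each pathway list, the 4 tested genes with the smallest unadjusted p and any past the threshold; some items of the lists are not reported here. Lists are described by counts and medians, with no test of the list.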

Additional observations from a re-analysis of the deposited data

How the results depend on the processing

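The number of genes past the threshold depended on the fit. It was 1 with all libraries, RLE factors, limma-voom or a minimum mean of 5 CPM, 47 with DESeq2 (19 higher, 28 lower), and 169 with no filter on low counts (101 higher, 68 lower). Leaving out 1 library gave from 0 to 193, namely 0 without vector 1 or vector 2 (226 and 676 genes at an unadjusted p under 0.05), 193 without Jagged1 1 and 49 without Jagged1 2. With the replicate number as a block 17 genes passed (7 higher, 10 lower), and no call on a member or named gene changed. Same-numbered libraries deviated together (correlation 0.425), but the labels do not say that they were handled together. Of 228 values of 23 genes chosen by the naming rule under the 10 alternatives, 213 kept their direction and side of the threshold, 10 changed sign and 5 newly passed. Il6st was at 0.01 with a minimum mean of 5 CPM and from -0.11 to 0.09 with 1 library left out. In that way Il6ra ran from -0.06 to 0.40, Osmr from -0.24 to 1.18, Socs3 from -0.14 to 0.46 and Il11ra1 from -0.09 to 0.17. List medians with 1 library left out ran from -0.14 to 0.43 for the members, 0.06 to 0.16 for kinases, proteases and STATs, and -0.06 to 0.06 for the inhibitors. With no filter the median was 0.60 for the other cytokines and -1.92 for the receptor chains, and with a minimum mean of 5 CPM the receptor chains stood at 0.06, since other genes were then tested. Other causes were not tested. Depth limits Il6, Il11 and Lifr, which had at most 36 reads in any library.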
